A study of Mus musculus with 7 samples.

Results

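The 4 Hox gene clusters of the mouse genome were described from peak lists of CTCF and of the cohesin subunit Rad21 in female liver. The members were the 38 genes used here whose symbol is Hoxa, Hoxb, Hoxc or Hoxd followed by a number, among 21275 autosomal protein-coding genes of the mm9 annotation. All peaks that overlapped the span from the first to the last gene of a cluster, extended by 100 kb on each side, were taken. This gave 52 of 68667 CTCF peaks and 46 of 68656 Rad21 peaks, of which 27 CTCF and 21 Rad21 peaks touched the spans themselves. The rule used positions and gene names and no measured value.

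The samples were livers of 8-week-old female CD-1 mice, an outbred stock (Crl:CD1(ICR)), with no treatment named in the labels. Liver nuclei were purified and crosslinked before chromatin immunoprecipitation and sequencing (ChIP-seq) with an antibody to CTCF (4 libraries, each from 1 liver) or to Rad21 (3 libraries, each from 1 liver). The peaks of each antibody come as 1 merged list, read here as called on its pooled libraries. Each peak thus has 1 value per antibody, with no replicate spread, and no test over samples was possible. The strength of a peak is the fold enrichment of reads at its summit over the local background, a ratio set by the authors. It is an average over all cells of the liver, in which fewer bound cells and less binding per cell cannot be told apart. CTCF and Rad21 folds come from separate pools and were not compared in size. The depth of the pools is not in the lists, a stretch with no called peak may nonetheless be occupied, and intervals given for shares (95%, Wilson) cover counting error only. The lists hold no expression values, so neither the liver identity nor the transcription of the Hox genes could be checked.

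Hox genes encode homeodomain transcription factors that set position along the body axis, and their order in a cluster follows the order in which they act from head to tail. Low numbers mark anterior genes, high numbers mark posterior genes, and genes of the same number in different clusters are paralogues. All genes of a cluster used here are transcribed in the same direction, from the posterior to the anterior end. CTCF is a zinc finger protein that binds a long, directional DNA motif, and cohesin is the ring complex that forms chromatin loops and is held at many CTCF sites. In embryos, CTCF sites inside Hox clusters are known as borders between active genes and genes silenced by Polycomb complexes. A site with both peaks is called CAC, a CTCF peak without Rad21 is Lone CTCF, and a Rad21 peak without CTCF is CNC (cohesin-non-CTCF).

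In mm9, HoxA lies on the minus strand at chr6:52112350-52210874 from Hoxa13 to Hoxa2 (98.5 kb, 10 genes). HoxB lies on the plus strand at chr11:96055630-96229570 (173.9 kb, 10 genes), HoxC on the plus strand at chr15:102751534-102867274 (115.7 kb, 9 genes), and HoxD on the plus strand at chr2:74506367-74603200 (96.8 kb, 9 genes). A 20-base CTCF motif, learned from the 1000 strongest CTCF peaks on other autosomes (consensus GTGGCCACCAGGGGGCGCTA), was searched within 100 bp of each summit on both strands. A match was called at 13.7 bits or more, the score reached by 1% of windows beside peaks. It was called at 17 of the 27 CTCF peaks in the spans, against 45.9% of the CTCF peaks on chromosomes 2, 6, 11 and 15. The sequences below are those at the sites that the results turn on. Each is the mm9 sequence 5′ to 3′ on the strand of the motif, with the 20 matched bases in capitals and 5 bases on each side in lower case.

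The matches between paralogous genes of groups 9 and 8 are shown since a CAC site lay in this interval in every cluster. At HoxA, which has no gene of group 8, the best match between Hoxa9 and Hoxa7 scored 13.6 bits and fell just short of a call.
Hoxb9 to Hoxb8, chr11:96140253-96140282, plus strand: gcacaGTGGCCGCTAGATGGCATCCttgct
Hoxc9 to Hoxc8, chr15:102818015-102818044, plus strand: aacaaGTGAACGCGAGGTGGCGCTGttgct
Hoxd9 to Hoxd8, chr2:74540443-74540472, plus strand: cgcatTTGGCCACTAGAGAGCGCTGttgct
Hoxa9 to Hoxa7 (not called), chr6:52171799-52171828, minus strand: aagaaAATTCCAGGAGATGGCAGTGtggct

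The matches between groups 6 and 5 and between groups 11 and 10 are shown for the same reason: each of these intervals held a CAC site in 3 clusters.
Hoxa6 to Hoxa5, chr6:52154649-52154678, minus strand: gcccaGTCTCCAGCGGGTGGCGCTCgagtc
Hoxb6 to Hoxb5, chr11:96164550-96164579, plus strand: cgtcaATCGCCGGGAGGTGGCGCGCtctgc
Hoxc6 to Hoxc5, chr15:102844124-102844153, plus strand: tccgaGTCGGCACCAGGTGTCGCTGtgagc
Hoxa11 to Hoxa10, chr6:52190531-52190560, minus strand: tcgcaGCCGCCACGAGATGGCGCACtcccg
Hoxc11 to Hoxc10, chr15:102796994-102797023, plus strand: ccgagGCAGCTGCTAGGTGGCGCTGttact
Hoxd11 to Hoxd10, chr2:74524528-74524557, plus strand: cttctACAGCCACACGAGGGCGCGCtcatg

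The other called matches are shown by where they lie: behind group 13, between Hoxb7 and Hoxb6, between Hoxd8 and Hoxd4, and in the coding exon of Hoxb3.
Hoxa13 to Hoxa11, chr6:52207111-52207140, plus strand: agcttGTCAACACGAGGTGGCGCCCttgat
Hoxb13 to Hoxb9, site A, chr11:96085312-96085341, minus strand: ccacaGAGGCCAGAAGAGGGCGCCAttttt
Hoxb13 to Hoxb9, site B, chr11:96096411-96096440, minus strand: ctctcGCGGCCGGCAGGGGTCACTGtgtgg
Hoxb13 to Hoxb9, site C, chr11:96101727-96101756, minus strand: cctagACAGACACTAGAGGGTGCTCggcgc
Hoxb13 to Hoxb9, site D, chr11:96123058-96123087, minus strand: cgcgaCCGACCTCTAGGCGGCGCCCtggcg
Hoxb7 to Hoxb6, chr11:96156003-96156032, minus strand: cccgaACGGACGGTAGATGGCAGCAaactg
Hoxd8 to Hoxd4, chr2:74553969-74553998, plus strand: gagctTTGTCCAGGAGGAGGCGCTGtagga
Hoxb3 coding exon, chr11:96207500-96207529, minus strand: agggaGGGGCCGGCAGGGGGCGGCAgcgga

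Peaks inside the Hox spans were strong for their lists. The median CTCF fold enrichment inside the spans was 16.2 (27 peaks, range 4.21 to 25.2), against 6.05 over the whole CTCF list. The median Rad21 fold inside the spans was 16.9 (21 peaks, range 3.29 to 27.2), against 4.93 over the whole Rad21 list. In the 100 kb flanks the medians were 7.42 for CTCF and 6.79 for Rad21, with 25 peaks each. Of the CTCF peaks in the spans, 23 of 27 lay above the list's median and 8 among its strongest 10%. Of the Rad21 peaks in the spans, 18 of 21 lay above the list's median and 11 among the strongest 9.99% of that list. The medians by cluster were 17.6 (HoxA), 15.4 (HoxB), 13.9 (HoxC) and 16.3 (HoxD) for CTCF and 14.99, 12.7, 19.7 and 23.6 in the same order for Rad21. Among CAC peaks alone, the CTCF median was 18.8 in the spans against 8.47 over the list, and the Rad21 median was 17.1 against 6.15. The gap narrowed when weak peaks were left out of both lists: at folds of at least 5, the medians in the extended regions were 15.1 against 11.4 for CTCF and 12.4 against 8.97 for Rad21, from 13.1 against 6.05 and 10.4 against 4.93.

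**Figure D1:**
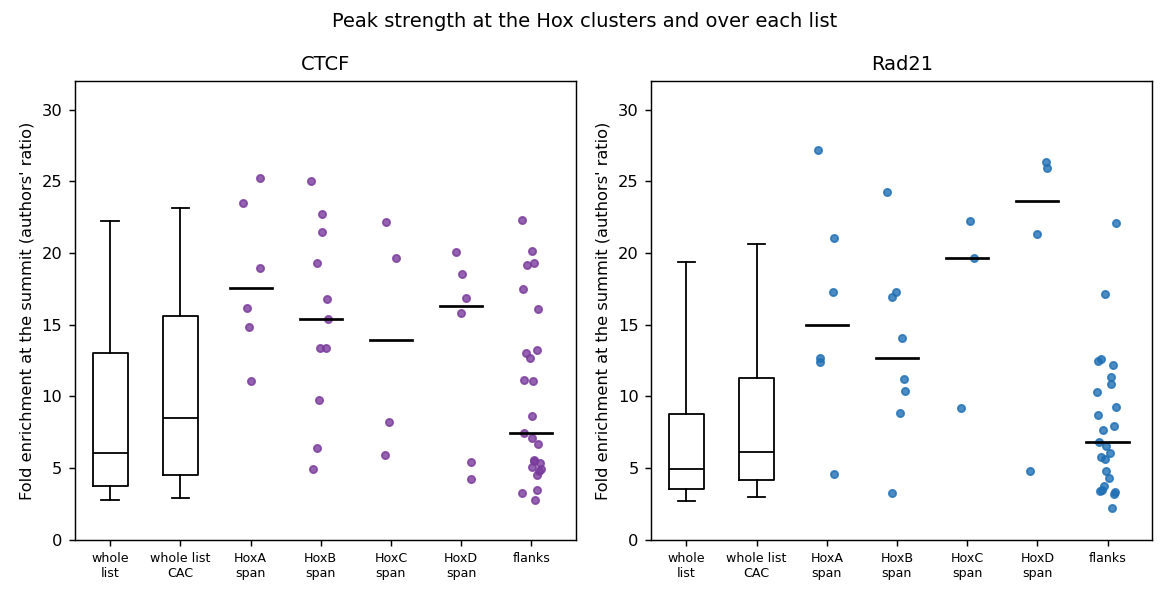
Fold enrichment at the summit (y axis, the authors' ratio) of CTCF peaks (left) and Rad21 peaks (right). Boxes give the quartiles and median of the whole list and of its CAC peaks, with whiskers at the 5th and 95th percentiles; points are single peaks in each cluster span and in the flanks of all clusters, with the median as a line. The span medians of all 4 clusters lie above the whole-list medians of 6.05 (CTCF) and 4.93 (Rad21), whereas the flank medians are 7.42 and 6.79.

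Peaks were also denser in the pooled spans than over the autosomes. The spans held 5.57 CTCF and 4.33 Rad21 peaks per 100 kb, against 2.71 and 2.72 over all autosomes, and HoxC alone held 3.46 and 2.59. HoxA held 6 CTCF summits, HoxB 11, HoxC 4 and HoxD 6. Of autosomal windows as long as the cluster, 18.9%, 16.1%, 35.2% and 18.5%, in the same order, held at least as many, and the median window held 1, 3, 2 and 1. For Rad21 the counts were 6, 8, 3 and 4, and 19.2%, 26.4%, 42.5% and 30.7% of windows held at least as many, with the same median counts as for CTCF.

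CTCF peaks at the clusters coincided with Rad21 about as often as elsewhere in the genome. In the extended regions 38 of 52 CTCF peaks were CAC (73.1%, interval 59.7 to 83.2), beside 73.7% of the whole list, and in the spans alone 20 of 27. Of the Rad21 peaks 38 of 46 were CAC (82.6%, interval 69.3 to 90.9), against 73.6% of the list, and in the spans alone 20 of 21. HoxA had no Lone CTCF peak: all 8 of its CTCF peaks were CAC. HoxD had no CNC peak: all 8 of its Rad21 peaks were CAC. The single CNC peak in any span was a weak one at chr11:96203243-96203470, in a noncoding exon of Gm11536 between Hoxb4 and Hoxb3 (fold 3.29). The median fold of the 14 Lone CTCF peaks was 5.47 and that of the 8 CNC peaks 3.42, against 3.85 and 3.48 over the lists. No motif was called at the 8 CNC peaks, and 3% of CNC peaks on the 4 chromosomes had one. A count of 0 was taken to allow up to 3 peaks, a share of 37.5%, which is not a Wilson limit.

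**Figure D2:**
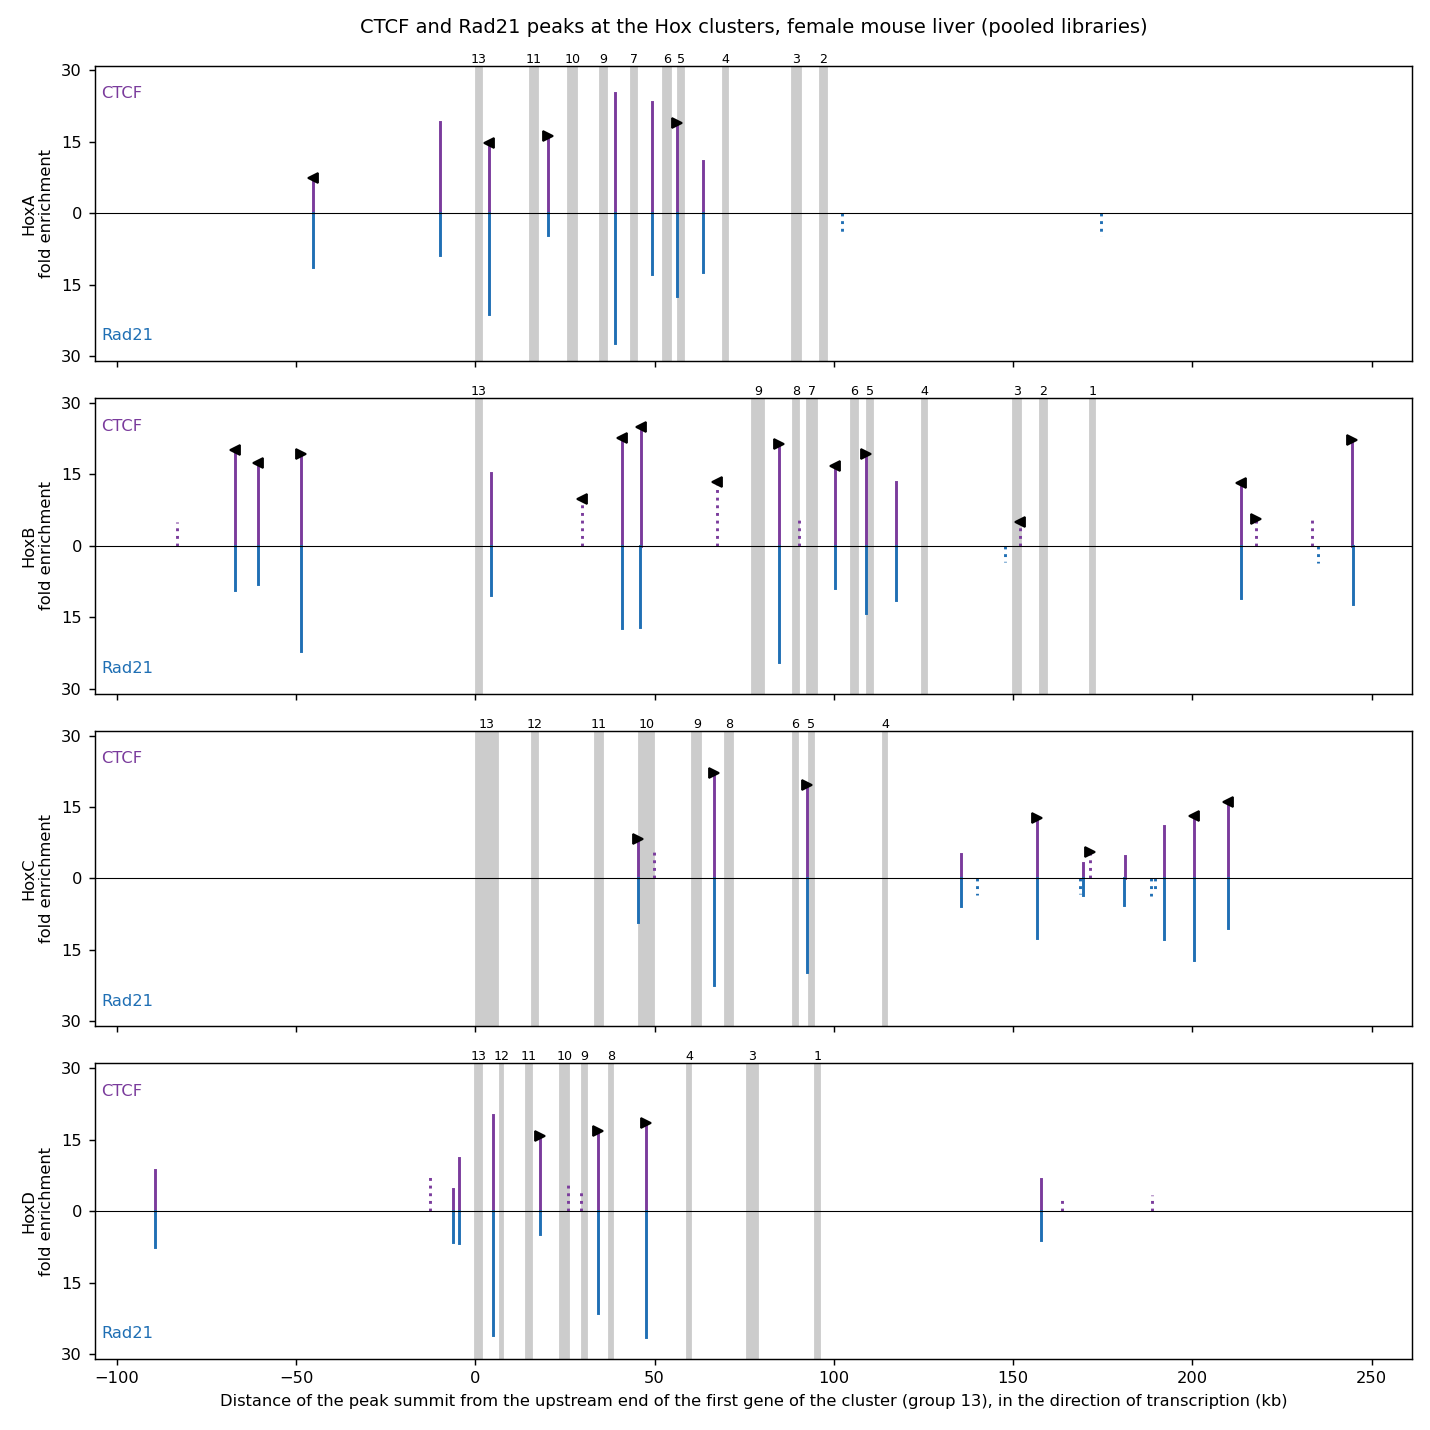
Peaks of the 4 clusters by distance of the summit from the upstream end of the group 13 gene, in the direction of transcription (x axis, kb); bars upward give CTCF fold enrichment and bars downward Rad21 fold enrichment. Solid bars are CAC peaks, dotted bars are Lone CTCF or CNC peaks, arrowheads give the direction of called motifs and grey bands are the Hox genes with their numbers. Inside the spans the tall paired bars lie between groups 13 and 4, and the anterior end of HoxA, HoxB and HoxD has no CAC peak up to the flank.

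Intervals between neighbouring Hox coding regions held peaks about as often as others in the genome. Of the 34 intervals between neighbouring Hox coding regions, 20 held a CTCF summit (58.8%), 18 a CAC summit (52.9%) and 19 a Rad21 summit (55.9%). These shares were near those of 7909 autosomal intervals of the same range of lengths between neighbouring coding regions on the same strand, which were 59.1%, 53.6% and 56.7%. The Hox intervals were shorter, with a median of 8929 bp against 18726 bp. Of the 16 Hox intervals between 6182 and 14979 bp, 11 held a CTCF summit, against 55.5% of the 2091 autosomal intervals of that length.

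The interval on the anterior side of the group 9 gene was occupied in every cluster, and in each by a strong CAC site. Between Hoxa9 and Hoxa7, in the UTR of Hoxa7 near its start at chr6:52171541-52172095, the CTCF fold was 25.2 and the Rad21 fold 27.2, both the highest of any peak in the 4 regions. Between Hoxb9 and Hoxb8, at chr11:96140026-96140485, they were 21.4 and 24.2. Between Hoxc9 and Hoxc8, in an intron of Gm20398 at chr15:102817776-102818256, they were 22.1 and 22.3. Between Hoxd9 and Hoxd8, at chr2:74540213-74540683, they were 16.8 and 21.3. All 4 Rad21 peaks and the CTCF peaks of HoxA, HoxB and HoxC ranked above at least 93.7% of their list, and the CTCF peak of HoxD above 84.3%. All 4 matches, the uncalled one of HoxA included, pointed in the direction of Hox transcription.

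Between groups 6 and 5, the 3 clusters that have both genes each held a CAC site of nearly equal CTCF strength. The CTCF fold was 19.0 near Hoxa5, 19.3 in the UTR of Hoxb5 and 19.6 just upstream of Hoxc5. The Rad21 folds were 17.3, 14.1 and 19.7 in the same order. The HoxA site lies at chr6:52154428-52154896, the HoxB site at chr11:96164316-96164779 and the HoxC site at chr15:102843910-102844351. The 3 called matches all pointed in the direction of transcription.

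Between groups 11 and 10, 3 clusters held a CAC site, and in HoxA and HoxD the strengths of the CTCF and the Rad21 peak ranked far apart. The site in the UTR of Hoxa10 at chr6:52190324-52190782 had a CTCF fold of 16.2, above 82.7% of its list, and a Rad21 fold of 4.62, above 45.6%. The site in the UTR of Hoxd11 at chr2:74524333-74524731 had a CTCF fold of 15.8 (above 81.9%) and a Rad21 fold of 4.81 (above 48.3%). At HoxC, just upstream of the Hoxc10 start at chr15:102796775-102797160, the folds were 8.21 and 9.21. Of the 16 CAC peaks in the spans with a CTCF fold above 80% of the list, these 2 had a Rad21 peak below its list's median, as had 2.5% of such CAC peaks over the whole list.

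**Figure D3:**
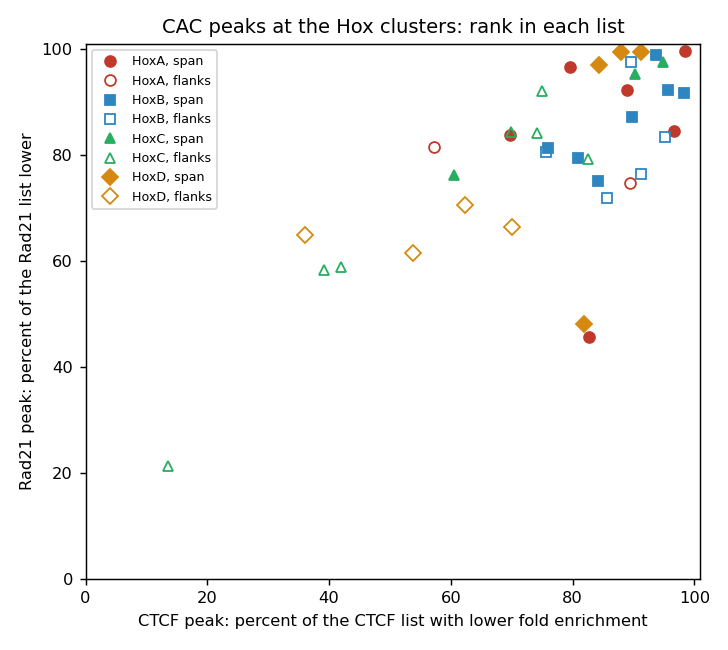
Each point is a CAC peak of the Hox regions, placed by the percent of the CTCF list (x axis) and of the Rad21 list (y axis) with a lower fold enrichment; filled symbols are in the cluster spans and open symbols in the flanks. Most span sites lie high on both axes, and the sites at Hoxa11 to Hoxa10 and Hoxd11 to Hoxd10 lie near 82% for CTCF but under 50% for Rad21.

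CTCF and Rad21 folds were positively correlated over the CAC peaks. The correlation on the log2 scale was 0.67 (Pearson) and 0.64 (Spearman) over the 38 CAC peaks and 0.48 and 0.57 over the 20 in the spans, beside 0.78 and 0.77 over all 50613; the difference was not tested. These describe sites of the same 2 pools, which share base composition and mappability.

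Behind the group 13 gene the clusters differed. HoxA held a site between Hoxa13 and Hoxa11 with folds of 14.8 for CTCF and 21.1 for Rad21 (chr6:52206738-52207482). HoxD held one between Hoxd13 and Hoxd12 with folds of 20.1 and 25.9 (chr2:74510941-74511413). HoxC had no peak of either list between Hoxc13 and Hoxc11. The long interval between Hoxb13 and Hoxb9 held 5 CTCF peaks, of which 3 were CAC. The CTCF peak at site C above was the strongest of HoxB (fold 25.1, Rad21 fold 16.9), and the peak at site B had folds of 22.7 and 17.3. The peak at site D, in a coding exon of Gm53, and that at site A were Lone CTCF with folds of 13.4 and 9.76. The remaining CAC peak, 4387 bp behind the Hoxb13 start, had folds of 15.4 and 10.4.

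Between groups 7 and 4, HoxA and HoxB held a CAC site in the same 3 intervals. Between groups 7 and 6 the CTCF fold was 23.5 at HoxA and 16.8 at HoxB, and the Rad21 fold 12.7 and 8.87. Between groups 5 and 4 the CTCF folds were 11.1 and 13.4 and the Rad21 folds 12.4 and 11.2. HoxC held no peak between Hoxc8 and Hoxc6 or between Hoxc5 and Hoxc4. The most anterior CAC site of HoxD, between Hoxd8 and Hoxd4 at chr2:74553716-74554265, had the strongest Rad21 peak of that cluster (fold 26.3, CTCF fold 18.5).

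Intervals between the anterior genes, groups 4 to 1, held no CTCF peak. There were 7 such intervals, 2 in HoxA, 3 in HoxB and 2 in HoxD, with a median length of 15427 bp, and the weak CNC peak of HoxB was their only Rad21 peak. Of the other 27 intervals, with a median of 8106 bp, 20 held a CTCF peak.

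**Figure D4:**
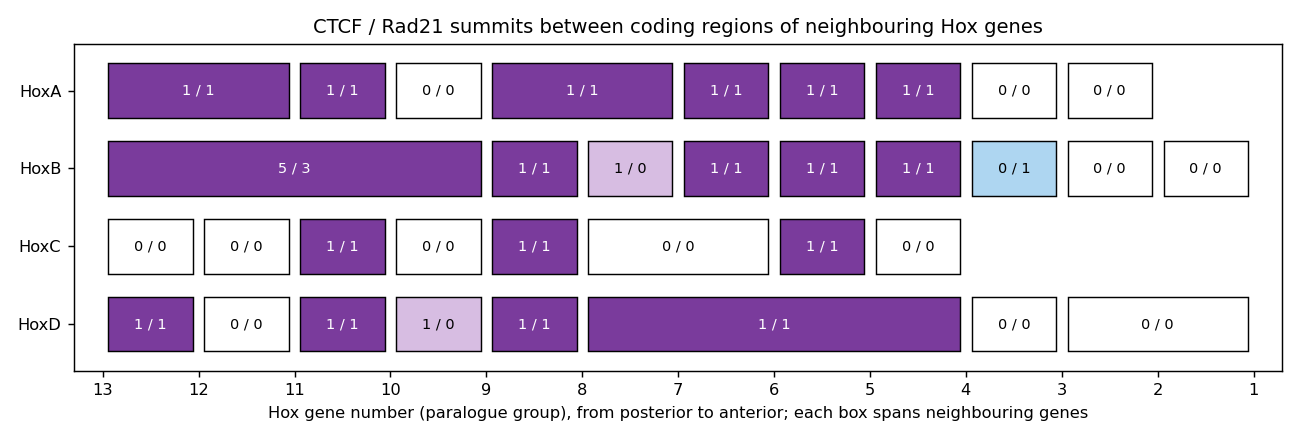
Each box is an interval between the coding regions of neighbouring Hox genes, by gene number from posterior to anterior (x axis) and cluster (rows); the text gives the number of CTCF and Rad21 summits. Dark boxes hold a CAC site, light purple boxes CTCF without Rad21, the blue box Rad21 without CTCF and white boxes neither. The interval on the anterior side of group 9 is dark in all 4 clusters, and no box from group 4 to group 1 holds a CTCF summit.

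The longest stretch without a CTCF peak lay over anterior genes in HoxA, HoxB and HoxD and over posterior genes in HoxC. At HoxA a stretch of 151.3 kb held Hoxa4, Hoxa3 and Hoxa2. At HoxD a stretch of 109.2 kb held Hoxd4, Hoxd3 and Hoxd1. At HoxB a stretch of 61.3 kb held Hoxb2 and Hoxb1, and Hoxb4 and Hoxb3 shared one of 34.0 kb. At HoxC a stretch of 158.6 kb held Hoxc13, Hoxc12 and Hoxc11. Stretches of at least these longest lengths made up 3.89% (HoxA), 5.66% (HoxD), 11.1% (HoxB) and 3.63% (HoxC) of the 66991 stretches between neighbouring autosomal CTCF peaks. They covered 44%, 50.2%, 62% and 42.9% of the autosomes in the same order, so a position in a stretch that long was common in the genome. The stretches that held genes of groups 10 to 5 ran from 4.0 to 25.7 kb, except that of Hoxc5 and Hoxc4 (42.3 kb).

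A CTCF peak at the gene start was less frequent among Hox genes than among protein-coding genes at large. Within 1 kb of a start, 8 of 38 Hox genes had a CTCF peak (21.1%, interval 11.1 to 36.3), against 53.9% of all autosomal protein-coding genes. A Rad21 peak was present at 6 (15.8%, interval 7.44 to 30.4), against 53.4%. Both were present at 6, against 50.2%. Within 2 kb of a start the counts were 13 and 11 genes, against 57.6% and 56.8% of all genes. With peaks of fold 5 or more alone, 7 Hox genes had CTCF and 5 had Rad21 within 1 kb, and the shares of all genes fell to 36.2% and 30.4%. The 6 genes with both were Hoxa5, Hoxa7, Hoxa10, Hoxb5, Hoxc5 and Hoxc10, and Hoxb7 and Hoxd9 had CTCF alone with folds of 6.38 and 4.21. By position, 5 of 11 central genes (groups 5 to 8) and 3 of 16 posterior genes (groups 9 to 13) had a CTCF peak. None of the 11 anterior genes had a peak of either list, a count that allows a share of up to 27.3%. The distance from start to the nearest CTCF peak had a median of 3787 bp over the 38 genes, against 381 bp over all genes, and for Rad21 the medians were 4168 and 349 bp.

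The peaks at Hox starts ranged from weak to strong. The nearest CTCF peaks of the 8 genes had folds from 4.21 to 25.2 with a median of 17.6, against a median of 5.22 over all 14374 CTCF peaks near an autosomal start, and the Hoxd9 peak lay below that median. The Rad21 folds at 6 genes ran from 4.62 to 27.2 with a median of 15.7, against 4.56. A CTCF motif was called at 5 of the 8 Hox start peaks (Hoxa5, Hoxa10, Hoxb5, Hoxc5 and Hoxc10), against 20% of peaks near a start on the 4 chromosomes. These sets were not matched for strength. On the 4 chromosomes a motif was called at 45.9% of all CTCF peaks and 63.2% of those with folds of at least 5.

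Genes that act with or on Hox genes were not sparse in start peaks. The Hox cofactors of the Pbx, Meis and Pknox families, which bind DNA jointly with Hox proteins, had a CTCF peak at 8 of 9 starts and a Rad21 peak at 8 of 9. Genes of the Polycomb complexes had CTCF at 15 of 17 and Rad21 at 16 of 17. Their median folds were 4.32 (CTCF) and 4.04 (Rad21) at the cofactors and 5.92 and 4.34 at the Polycomb genes, beside the 5.22 and 4.56 of all peaks near a start. The Evx genes, homeobox genes adjacent to HoxA (Evx1) and HoxD (Evx2), had no peak at either start.

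**Figure D5:**
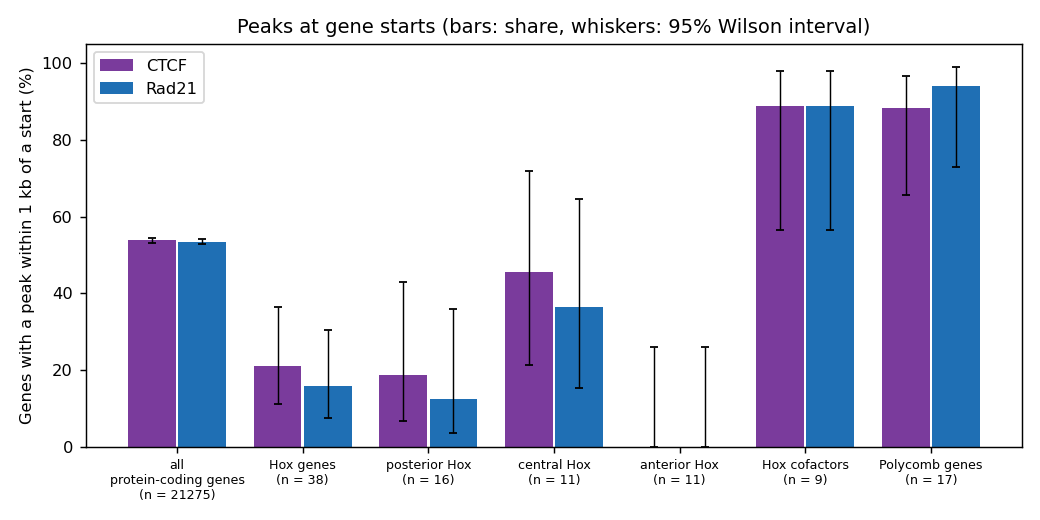
Share of genes with a CTCF peak (purple) or a Rad21 peak (blue) within 1 kb of an annotated start (y axis, percent), with the number of genes in each list; whiskers are 95% Wilson intervals and cover counting error only. Hox genes stand at 21.1% and 15.8% and anterior Hox genes at 0, against 53.9% and 53.4% of all genes.

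The called motifs in the spans lay on both strands. Of the 17, 10 lay on the strand of Hox transcription (58.8%, interval 36 to 78.4), a share that counting error does not separate from an even split: 3 of 3 at HoxC, 3 of 3 at HoxD, 2 of 3 at HoxA and 2 of 8 at HoxB. The opposite motif of HoxA lay between Hoxa13 and Hoxa11. The 6 opposite motifs of HoxB were those at sites A to D, at Hoxb7 to Hoxb6 and in Hoxb3. Cohesin summits lay on the downstream side of the motif centre, reading the motif as printed, at 12 of the 14 CAC sites with a call in the spans (median 19.5 bp), against 69.5% on the 4 chromosomes (median 17.5 bp).

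The share of CTCF peaks with a call did not differ from the list beyond counting error. In the extended regions 28 of 52 CTCF peaks had one (53.8%, interval 40.5 to 66.7), and in the spans 17 of 27 (63%, interval 44.2 to 78.5), and both intervals include the 45.9% of the 4 chromosomes. Of the CAC peaks in the spans 14 of 20 had a call, against 48.4% of CAC peaks, and of the Lone CTCF peaks 3 of 7, against 38.9%. Read from the sequence side, the spans held 38 matches of 13.7 bits or more, of which 17 lay in a CTCF peak (44.7%, against 32.2%). All 5 matches of at least 18 bits lay in a peak, as did 73.3% of such matches on the 4 chromosomes.

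Nearly every called match in the spans contained a CG dinucleotide, the base pair step that DNA methylation acts on. A CG was present in 16 of 17 matches (94.1%), against 43.5% on the 4 chromosomes and 6 of 11 in the flanks. The exception was site C between Hoxb13 and Hoxb9. The surroundings were also rich in CG, with a median of 7 around the match (range 0 to 20) against 2, and of peaks on the 4 chromosomes with 7 or more, 84.5% had a CG in the match. Their part in the share was not tested beyond this.

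The highest motif scores were not at the strongest peaks. The best matches in the spans, 22.3 bits in the coding exon of Hoxb3 and 22.1 bits at site A, were both Lone CTCF, with folds of 4.95 and 9.76. On the 4 chromosomes, 15.6% of CTCF peaks with 20 bits or more were Lone CTCF, and 14% had a fold below the list's median. Conversely the strongest CTCF peak of the 4 regions, between Hoxa9 and Hoxa7, had no call, and the peak between Hoxa7 and Hoxa6 (fold 23.5) had a best match of only 11.4 bits.

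Hox coding exons carried 3 CTCF peaks, all Lone CTCF and weak: in Hoxb3 (fold 4.95), Hoxc10 (fold 5.90) and Hoxd10 (fold 5.41). The paralogues Hoxc10 and Hoxd10 are shown because their peaks lay over nearly the same sequence, and were chosen after the values were seen. The best matches scored 10.7 and 11.9 bits, under the threshold, and both ran against transcription. They were identical at 25 of 30 bases, whereas 99 pairs of called matches in different clusters shared a median of 14 (range 9 to 22). The highest of these, 22 of 30, was between the Hoxa13 to Hoxa11 and Hoxc9 to Hoxc8 sites, which are not paralogous positions. The comparison is of unlike sets: the Hoxc10 and Hoxd10 stretches are coding sequence of paralogous genes, whereas most called matches lie outside coding exons. Likeness of the coding sequence and likeness of a CTCF site cannot be told apart here.
Hoxc10 coding exon (not called), chr15:102801358-102801387, minus strand: tcttgCTAATCTCCAGGCGGCGCTCtcgcg
Hoxd10 coding exon (not called), chr2:74532277-74532306, minus strand: tcttaCTGATCTCTAGGCGGCGCTCgcggg

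The flanks differed in strength from cluster to cluster. Beyond Hoxa13, the strongest CTCF peak of the flank had folds of 19.2 for CTCF and 8.71 for Rad21 (chr6:52220425-52221041), and the strongest Rad21 peak, 11.3, lay between Hoxa13 and Evx1. Beyond Hoxa2 there was no CTCF peak, and the 2 Rad21 peaks were CNC with folds of 4.34 and 4.81. Beyond Hoxb13 the strongest CTCF fold was 20.2 at chr11:95988275-95988763, and the strongest Rad21 fold 22.1 at chr11:96006845-96007395 in an intron of Ttll6. Beyond Hoxb1 a CAC site at chr11:96299937-96300544 had folds of 22.3 and 12.2.

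Within 100 kb beyond Hoxc13 there was no peak of either list. Beyond Hoxc4 the strongest CTCF fold was 16.1 at chr15:102960983-102961632, in an intron of D930007P13Rik, and the strongest Rad21 fold 17.1 at chr15:102951811-102952322. Beyond Hoxd13 the strongest CTCF fold was 11.1, between Evx2 and Hoxd13 at chr2:74501591-74502066, and the strongest Rad21 fold 7.63 at the Lnp start. Beyond Hoxd1 the strongest site was at the Mtx2 start, with folds of 6.70 and 6.06.

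For CTCF, the peaks next to the 100 kb limit differed in strength from edge to edge. The nearest CTCF peak outside lay 0.5 kb beyond the edge on the Hoxb13 side, with a fold of 16.3, whereas the outermost one inside that edge had a fold of 4.95. On the Hoxc4 side the outermost peak inside had a fold of 16.1 and the next outside, 28.5 kb beyond the edge, 22.9. On the Hoxd1 side they were 3.44 and, 99.2 kb beyond the edge, 24.4, and on the Hoxa2 side, where no CTCF peak was inside the flank, the next outside, 16.5 kb beyond, had a fold of 8.66. The outermost inside and the next outside had folds of 7.42 and 3.85 on the Hoxa13 side, 22.3 and 19.9 on the Hoxb1 side, and 8.66 and 18.5 on the Hoxd13 side, with the outer peaks 129.5, 67.9 and 267.6 kb beyond the edge. On the Hoxc13 side, where the flank held no peak, the next outside had a fold of 3.71, 13.4 kb beyond.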

How the data were processed

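ChIP-seq libraries of CTCF (4) and Rad21 (3) from female mouse liver were mapped to mm9 with Bowtie2, and uniquely mapped reads were kept by the authors. They called peaks with MACS2 and removed blacklisted regions and peaks made of duplicate reads alone. The list of each antibody is named as merged and was read as called on its pooled libraries. The deposited lists give for each peak a score, a fold enrichment (ratio), −log10 p and −log10 q values and the summit. Fold was used as deposited, −log10 q as an alternative filter or ranking, and the score and −log10 p were not used. There were 0 columns of other samples, and no depth or replicate value is in the lists.

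Peaks were joined to GENCODE vM1 (NCBIM37, the same assembly as mm9) by an overlap of at least 1 bp. Intervals run between coding regions, leaving out a long isoform of Hoxa3. The motif matrix was learned by expectation maximisation, tested on simulated data, and set at the score of 1% of 32156 windows 1000 bp from summits. Analyses used Python 3.11.15, numpy 2.4.6, scipy 1.17.1, pandas 2.3.3, pysam 0.24.0 and samtools 1.23.1.

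The members and lists were chosen with earlier results of these data known. Named were span peaks with a called motif, the strongest CTCF and Rad21 peak of each span and of each flank, and Hox genes with a start peak. Other peaks were named to complete the intervals between genes, after their values were seen. Alternatives were stricter peaks (−log10 q of 10, fold of 5), extensions of 50 kb and none, stricter overlap, other motif settings, and other start definitions. Of the HoxA genes, Hoxa2 to Hoxa13 were used.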

Additional observations from a re-analysis of the deposited data

How the results depend on the processing

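Of 46 alternative values, 37 stayed within the interval or factor set for no change and 9 moved, but the side of the whole list on which a share lay was not stable. The CAC share of CTCF peaks, 73.1% against 73.7%, was 75.5% against 71.2% at −log10 q of at least 10, 75% against 70.1% at folds of at least 5 and 71.2% against 60.8% with summits within 100 bp. It was also the higher at an overlap of 50% (73.1% against 69.6%) and with an extension of 50 kb or none (75.7% and 74.1% against 73.7%). The motif share, 53.8% against 45.9%, was 61.4% against 63.2% at folds of at least 5. There the median folds, 15.1 against 11.4 (CTCF) and 12.4 against 8.97 (Rad21), stood closer to the lists than without the filter. Without the extension the counts were 27 CTCF and 21 Rad21 peaks, the Rad21 median fold was 16.9 and the CAC share of Rad21 peaks 95.2%. With peaks of −log10 q of at least 10 that share was 92.5%, and with fold of at least 5 it was 94.3%, against 80.7% and 83.9% of the filtered lists. With the motif called at a 5% background rate its share was 75%, against 63.3% of the list. With starts taken as 2 kb, 13 Hox genes had a CTCF peak and 11 a Rad21 peak, against 57.6% and 56.8% of all genes. With folds of at least 5 these counts within 1 kb were 7 and 5, against 36.2% and 30.4%. No paired analysis was possible because each list is a pool with no column for a single library, and for the same reason no replicate could be left out. Pool depth, which sets how weak a site can be called, is not in the lists.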
